A study of Mus musculus with 17 samples.

Results

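Interferon response genes are the transcripts that cells switch on when type I, II or III interferon binds its receptor. Receptor-bound Janus kinases phosphorylate STAT proteins. A complex that holds STAT2 and IRF9 then binds the interferon-stimulated response element (ISRE) in target promoters, while STAT dimers bind the gamma-activated site (GAS). The targets sense foreign RNA and DNA, block viral translation, entry and budding, and modify proteins with ISG15, and endothelial cells are known to express many of them at a basal level. The genes described here are 37 interferon-induced genes and their STAT and IRF factors, listed by symbol with no threshold on a measured value, though with earlier results of these data known, out of 49585 genes in each count table. All 37 were found by Ensembl identifier, are protein coding and lie on 14 chromosomes, and each had a count in at least 1 library.

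RNA was sequenced by SmartSeq2, which copies and amplifies whole polyadenylated transcripts and tags no single molecules, from sorted mouse bone marrow endothelial cells, giving 17 libraries. The KO mice carried Cdh5-CreERT2, a tamoxifen-inducible Cre recombinase under an endothelial promoter, and Eng fl/fl, in which loxP sites flank exons of the gene for the TGF-beta co-receptor Endoglin. The WT and KO mice all received tamoxifen, given at 8 weeks of age, and were sampled 2 or 4 weeks later; the labels do not say whether WT mice carried Cre or the floxed allele. There were 4 WT and 4 KO libraries at 2 weeks (2 females and 2 males each), 5 WT libraries at 4 weeks (2 females, 3 males) and 4 KO libraries at 4 weeks (1 female, 3 males). Cells were sorted as CD45-, Ter119-, CD31+ and Sca1+ per the extraction protocol, and the series text gives the same gate without Sca1. Libraries are named below by sex and label number (f1, m2), and 1 female 4-week WT library has no number (f).

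Libraries held between 20477400 and 40882715 counts, so that 3 counts, taken as the floor of detection, correspond to 0.0734 to 0.147 CPM, the count in every 1000000 counts of a library. The 2-week libraries held 10886 to 13583 genes with a count and 22.2% to 29.5% mitochondrial counts, against 15996 to 21235 genes and 4.66% to 8.99% at 4 weeks. The labels name no batch, so time and such differences cannot be told apart. Eng was at 704.7 to 1307 CPM in WT and 225.0 to 347.2 CPM in KO at 2 weeks, and at 2400 to 2735 and 273.9 to 1647 CPM at 4 weeks, with no overlap at either time. Summed markers of endothelium were at 3677 to 4820 CPM in WT and 2787 to 3469 CPM in KO at 2 weeks, without overlap, and at 7296 to 9086 and 6674 to 8580 CPM at 4 weeks, and Ptprc, which encodes the CD45 of the sort, was at most 2.57 CPM in every library but KO m2 of 2 weeks (15.6 CPM). That library and KO m3 of 2 weeks stood apart in summed neutrophil markers, at 4104 and 3150 CPM against 19.99 to 237.5 CPM in the other 15 libraries, and the 2-week results are followed by their values without both. In such bulk samples, fewer cells of a type and less RNA per cell cannot be told apart. The labels do not state that each library came from a separate animal, so p-values measure only the spread between these samples, which may be technical.

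The promoters of the set show the sequence that the pathway acts through. RefSeq windows of 250 bases before to 50 bases after the transcript start (GRCm38.p6) were at hand for 29 of the 37 members. The ISRE core, spelled GAAA, any 2 bases and GAAA, or on the other strand TTTC, any 2 bases and TTTC, was in the windows of 19 of these 29 members (65.5%) and of 3.99% of 27025 genes. The GAS letters TTCNNNGAA, which read the same on both strands, were in 9 of 29 members (31.0%) and 9.55% of genes; 6 members had both motifs, 13 the ISRE core only, 3 the GAS only and 7 neither. The following stretches, each read 5′ to 3′ on the gene's strand and ending before the start, are those of the most abundant members with an ISRE core, plus Ddx60 and Irf1, which were added after their values were seen because results turn on them. Capitals mark the ISRE core, or the GAS in Irf1. Ifitm3, Gbp2, Gbp3 and Irgm1 also qualified by level, but their stretches reach into the gene as annotated and are not printed.
Bst2: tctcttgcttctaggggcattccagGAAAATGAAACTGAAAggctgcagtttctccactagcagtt
Rsad2: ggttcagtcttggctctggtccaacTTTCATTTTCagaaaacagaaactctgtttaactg
Gbp7: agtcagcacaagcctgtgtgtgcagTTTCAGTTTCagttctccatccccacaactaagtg
Ifit3: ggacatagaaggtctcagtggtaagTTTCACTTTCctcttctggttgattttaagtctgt
Ifit1: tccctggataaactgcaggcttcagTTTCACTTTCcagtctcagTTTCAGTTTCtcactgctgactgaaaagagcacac
Ddx60: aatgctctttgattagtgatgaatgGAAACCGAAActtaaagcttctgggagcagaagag
Irf1: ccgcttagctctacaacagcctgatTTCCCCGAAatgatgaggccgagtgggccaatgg
On GRCm38.p6 these are chr8:71537562-71537627 (Bst2, minus strand), chr12:26456538-26456597 (Rsad2, minus), chr3:142530258-142530317 (Gbp7, plus), chr19:34583348-34583407 (Ifit3, plus), chr19:34640760-34640838 (Ifit1, plus), chr8:61928009-61928068 (Ddx60, plus) and chr11:53769899-53769957 (Irf1, plus). Bst2 holds overlapping copies of the core and Ifit1 a pair of separate copies. A match describes the letters only; no binding was measured.

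The set spanned a wide range of levels, and its order was alike at the top in all 4 groups. Per kilobase of exon, Ifitm3, which restricts viral entry at endosomal membranes, was highest with a mean of 2501 CPM per kb in WT and 2932 in KO at 2 weeks, and 3040 and 3211 at 4 weeks. Bst2, the tetherin that holds budding virus at the cell surface, came next at 349.9, 500.3, 521.6 and 588.2 CPM per kb in the same order. The third place was taken by Ifi35 in WT and Irf7 in KO at 2 weeks and by Ifi27 in both genotypes at 4 weeks, so the order below Bst2 was not fixed; at 2 weeks in WT, Ifi35 (110.0 CPM per kb) and Ifit3 (109.9) were closer to each other than the spread between libraries. At the bottom, the GTPase gene Mx1 had no count in 15 of 17 libraries and reached 0.712 CPM at most, and Oas3, a synthetase of the 2-5A signal that activates RNase L, had none in 13 and reached 5.95 CPM in KO f1 of 2 weeks.

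**Figure D1:**
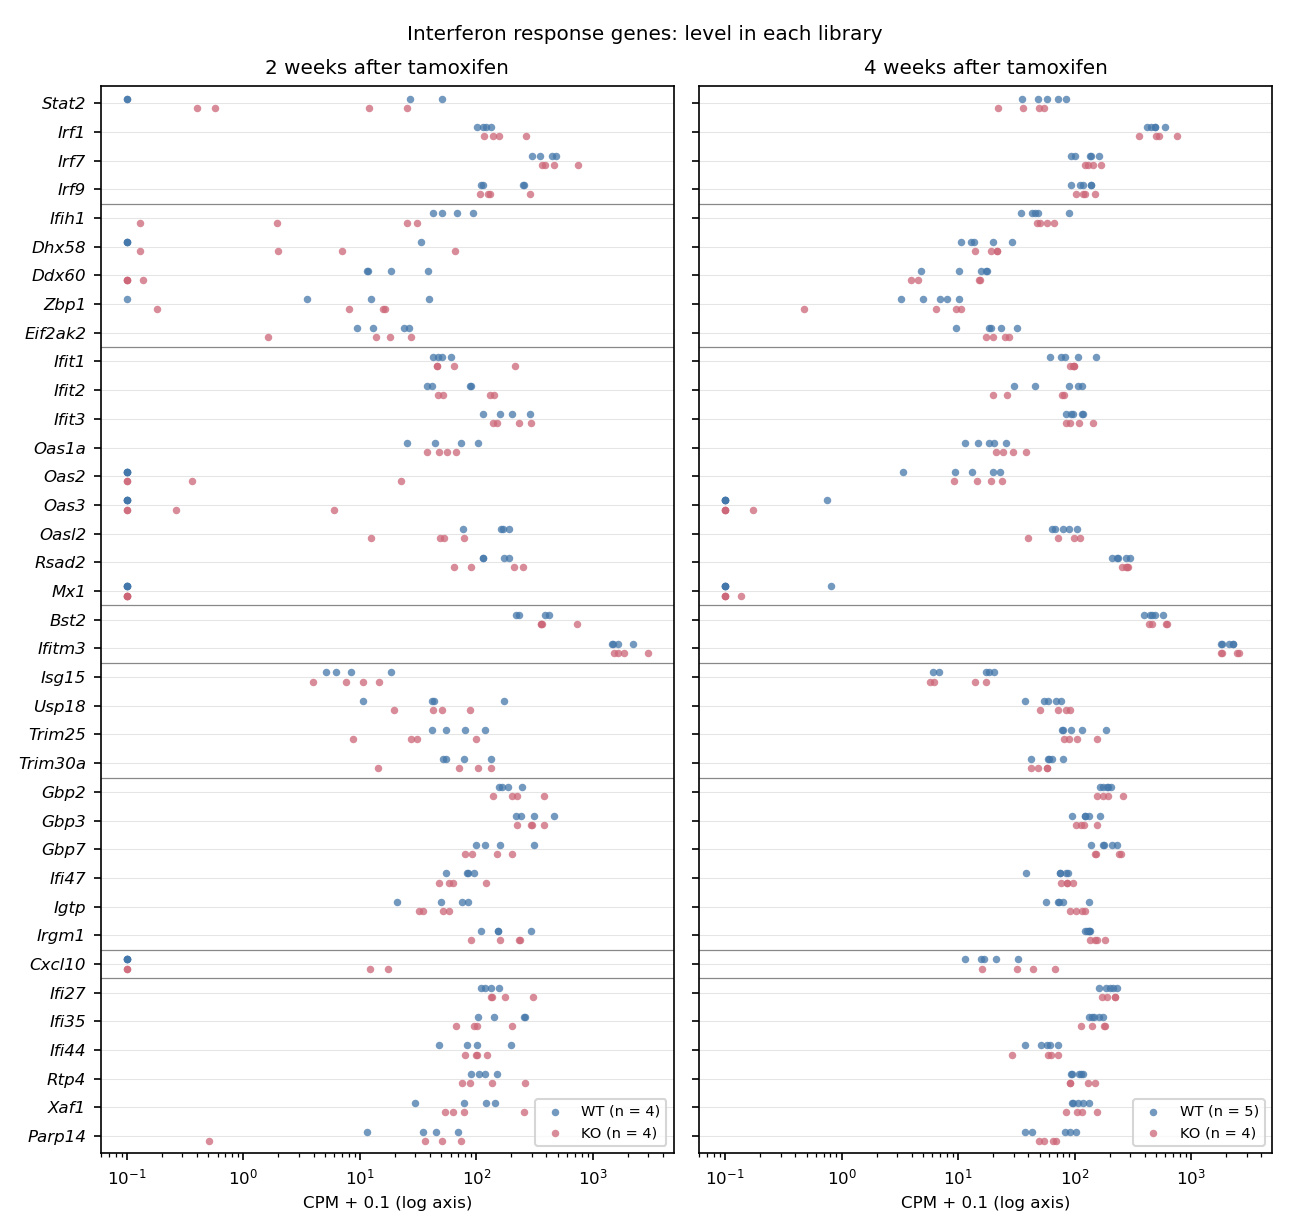
Level of each of the 37 members in each library, on a log axis of CPM + 0.1, at 2 weeks (left) and 4 weeks (right), WT in blue and KO in red; rows are grouped by role, from transcription factors at the top, with lines between groups. Points at 0.1 are libraries with a count of 0. The 4-week points of most genes lie closer together than the 2-week points, and Ddx60 is at or near 0 in the 4 KO libraries of 2 weeks.

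The libraries of 2 weeks also differed more among themselves. The median SD of log2 CPM over the 35 members of the joint fit was 0.59 in WT and 0.74 in KO at 2 weeks, and 0.32 and 0.35 at 4 weeks; for genes of like level the medians were 0.59, 0.77, 0.31 and 0.32. Of the 36 members detected at 2 weeks, KO f1 was highest for 11 (among them Irf1, Irf7, Irf9, Bst2, Ifitm3, Ifit3, Rtp4 and Xaf1) and WT f1 for 9 (among them Isg15, Usp18, Oas1a and Oasl2). Over the genes tested at 2 weeks, KO f1 was highest for 18.2% of all genes and 9 of 33 members, and WT f1 for 15% and 9 of 33. Summed over the 37 members, KO f1 held 7724 CPM against 4466 to 6439 CPM in the other 2-week libraries. KO f1 was also the only library with the plasmacytoid dendritic cell markers above 8.65 CPM in sum (53.3 CPM), of which Runx2 gave 44.9 CPM, while Ccr9, Klk1 and Spib were at 0 in all KO libraries of 2 weeks; the part of this in the members' levels was not tested.

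The first comparison asked whether the loss of Eng in endothelium went with a change in these genes at 2 weeks. No member passed the adjusted threshold of 0.05 in edgeR's quasi-likelihood test, and no gene of 10477 tested did (0%). The 5 nucleic acid sensors had 3 fitted values below and 2 above 0 and held both extremes of the members, Ddx60 at -10.89 and Dhx58 at 4.80. Ddx60, a helicase that aids RIG-I-like sensing of viral RNA, and Ifih1, which encodes the double-stranded RNA sensor MDA5, were below every WT library in every KO library. Oasl2, an OAS-like protein of the antiviral effectors, overlapped WT in 1 KO library. Irf1, Irf7, Bst2 and Ifi27 had fitted values above 0 that did not pass the test. Of the 37 members 33 were tested, and Oas2, Oas3, Mx1 and Cxcl10 were too low for the filter. DESeq2 and limma voom, run as alternatives, each called 1 member, Ddx60 (adjusted p = 2.4e-10 and 0.0224), among 55 higher and 96 lower genes with DESeq2 (1.44%) and 4 higher and 8 lower with voom (0.115%).

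Ddx60 (chromosome 8, 61928087 to 62038244, plus strand) was at 38.5, 18.6, 11.8 and 11.5 CPM in WT f1, f4, m2 and m3. The 4 KO libraries held a single count between them, in f1 (0.0375 CPM), and f4, m2 and m3 were at 0. Every WT library thus held at least 383 counts where a KO library held at most 1. The summed counts were 3035 in WT and 1 in KO, and their ratio after scaling by the library totals was 2578, with an exact 95% interval of 462.3 to 101860 that covers counting error only. The fitted log2 fold change was -10.89 (SE 2.01, adjusted p = 0.964, edgeR), a value that depends on how near-zero counts are treated. The two-sided exact permutation test on log2 CPM gave p = 0.0286, the smallest that 4 against 4 libraries allow.

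Ifih1 (chromosome 2, 62595798 to 62646255, minus strand) was at 42.3, 93.8, 50.7 and 67.6 CPM in WT f1, f4, m2 and m3. In KO it was at 1.84 CPM in f1 and 0.0295 CPM in f4, a single count, and at 31.0 and 25.5 CPM in m2 and m3. All 4 KO libraries lay below all 4 WT libraries, and the KO females lay far below the KO males. The fitted log2 fold change was -3.63 (SE 1.87, adjusted p = 1, edgeR) and the exact permutation test gave p = 0.0286. The 2 KO libraries with Ifih1 in appreciable amount were those with the high neutrophil markers, and they are the only KO males of that time. Without both the log2 fold change was -6.24, from KO females only. The part of the markers or of sex in the value was not tested. The log2 fold change was -2.29 without KO f4 and -1.78 with voom.

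Oasl2 was at 190.8, 164.2, 169.9 and 76.9 CPM in WT f1, f4, m2 and m3 and at 48.3, 12.5, 78.2 and 52.6 CPM in KO f1, f4, m2 and m3. The groups met only where KO m2 exceeded WT m3 by a small margin. The log2 fold change was -1.73 (SE 0.59, adjusted p = 1, edgeR; exact permutation p = 0.0286), and it was -1.27 without KO f4 and -1.20 with voom. Among the 15 members given this permutation test at 2 weeks, Ddx60, Ifih1 and Oasl2 were the only ones at p = 0.0286, unadjusted; they entered it because their edgeR p on the same libraries was the smallest of the lower members, so it is a second description of that choice and not further support. Ranges did not overlap for 2 of 33 members, both lower in KO (6.06%), against 3.36% of all genes tested in either direction and 1.78% lower. An unadjusted p under 0.05 was reached by 2 members, Ddx60 and Oasl2, and by 2.63% of all genes. Beside the low KO values of these 3 genes, the summed endothelial markers given above and the summed mesenchymal stromal markers (1461 to 1965 CPM in WT, 1124 to 1401 CPM in KO) were also lower in KO without overlap, and the summed erythroid markers were higher in KO without overlap (61.5 to 232.6 CPM in WT, 277.8 to 1252 CPM in KO). Summed monocyte and macrophage markers were at 459.7 and 282.9 CPM in KO m2 and m3 and at most 61.3 CPM in the other 15 libraries. The part of these markers in the values was not tested.

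Of the other sensors, Dhx58, the regulator LGP2, was at 0 in 3 of 4 WT libraries and at 33.3 CPM in the other, and at 0.0295 to 65.0 CPM in KO (log2 fold change 4.80, SE 4.80). Zbp1, a sensor of Z-form nucleic acids, ran from 0 to 39.2 CPM in WT and 0.0825 to 16.2 CPM in KO. Eif2ak2, the kinase PKR, ran from 9.34 to 26.3 CPM in WT and 1.51 to 27.2 CPM in KO. All 3 varied widely from library to library within both genotypes, and none of them reached an unadjusted p under 0.05.

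Among the transcription factors, Irf1, an activator of ISRE-type promoters, was at 134.7, 121.1, 101.7 and 112.8 CPM in WT f1, f4, m2 and m3 and at 266.6, 155.3, 138.9 and 115.9 CPM in KO. Only KO m3 fell within the WT range, and the log2 fold change was 0.48 (SE 0.22, adjusted p = 1, edgeR; exact permutation p = 0.0571). Irf7, which drives the amplification of type I interferon, was at 487.2, 348.9, 444.5 and 301.9 CPM in WT and at 748.6, 391.7, 462.4 and 366.0 CPM in KO, overlapping widely. Without KO f1 the log2 fold changes of Irf1 and Irf7 went from 0.48 to 0.28 and from 0.30 to 0.08.

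Irf9, the DNA-binding partner of STAT2, was at 253.2, 114.4, 257.3 and 108.8 CPM in WT f1, f4, m2 and m3 and at 286.8, 129.9, 106.8 and 126.4 CPM in KO. High and low libraries occurred in both genotypes, which overlapped almost fully. Stat2 was at 0, 27.1, 0 and 50.4 CPM in WT and at 25.2, 0.471, 11.9 and 0.302 CPM in KO. The fitted log2 fold change of Stat2 was -1.12 (SE 2.87), while the difference of mean log2 CPM had the other sign at 0.90, so no direction can be given.

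Bst2 was at 422.7, 220.4, 386.9 and 233.9 CPM in WT f1, f4, m2 and m3 and at 725.5, 365.3, 356.6 and 359.8 CPM in KO. KO f1 was highest and the other 3 KO libraries lay within the WT range; without KO f1 the log2 fold change went from 0.48 (SE 0.31) to 0.22. Ifi27, a small hydrophobic protein induced by type I interferon, was at 108.5, 155.3, 118.8 and 134.6 CPM in WT and 136.3, 307.1, 177.6 and 132.5 CPM in KO (log2 fold change 0.53, SE 0.31), and without KO f4 this was 0.19. Isg15, the ubiquitin-like modifier, was low throughout, at 18.5, 5.04, 8.29 and 6.12 CPM in WT and 14.6, 10.5, 3.87 and 7.53 CPM in KO. The 2 genotypes overlapped for each of these genes.

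No member of the remaining groups passed at 2 weeks. The 6 tested RNA-level effectors (IFIT, OAS and related genes) had 4 fitted values above and 2 below 0, with a median log2 fold change of 0.06. The 6 guanylate binding proteins and immunity GTPases had 3 above and 3 below, from -0.29 to 0.28. The 4 genes of the ISG15 and ubiquitin system all had values below 0, from -1.04 for Trim25 (the ubiquitin ligase that activates RIG-I) to -0.12 for Isg15, and none passed. Over the 33 members the median was 0.01, with 18 above and 15 below 0, beside -0.06 over all genes tested.

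Without KO m2 and m3, the libraries rich in neutrophil markers, no member passed at 2 weeks and the members' median was 0.04. These are the only KO males of 2 weeks, so the KO group of this fit held females only. Oasl2 went from -1.73 to -2.60 and Ddx60 from -10.89 to -10.42 on the log2 scale. Irf1 went from 0.48 to 0.68, Bst2 from 0.48 to 0.71, Ifi27 from 0.53 to 0.74 and Irf7 from 0.30 to 0.40. Ifit2 (0.35 to -0.43), Irf9 (-0.23 to 0.13), Isg15 (-0.12 to 0.04) and Irgm1 (0.04 to -0.22) changed sign, so no direction can be given for these 4 genes.

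**Figure D2:**
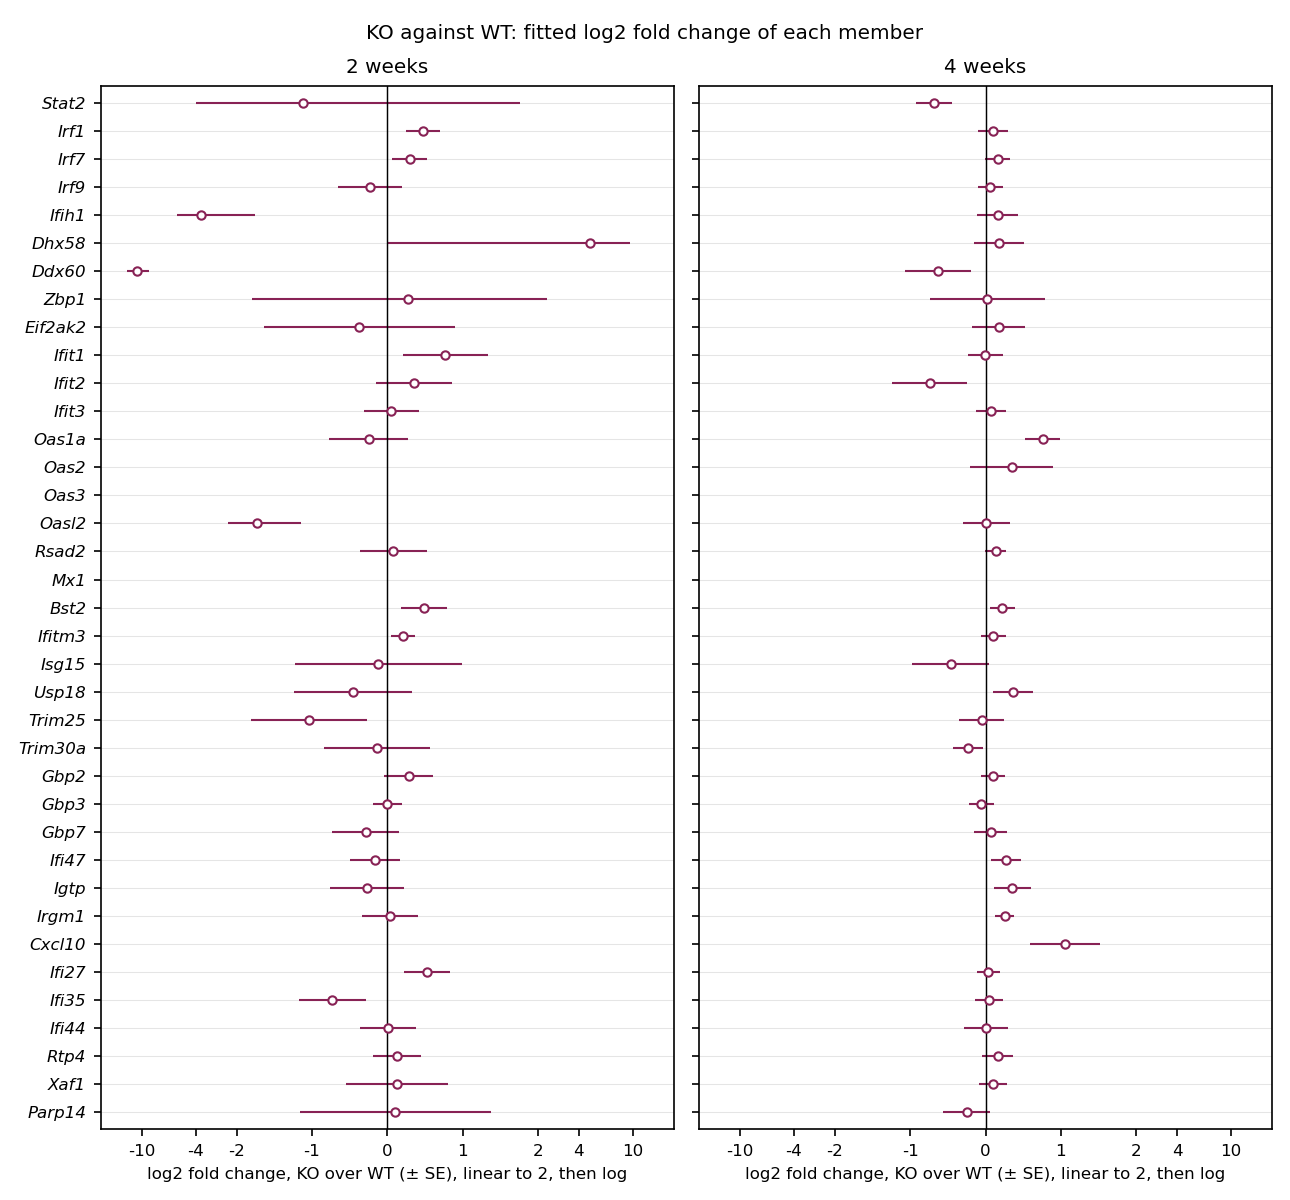
Fitted log2 fold change of each member, KO over WT, with its standard error as a bar, at 2 weeks (left) and 4 weeks (right); the axis is linear to 2 and logarithmic beyond, in both directions. Open circles are members that did not pass the adjusted threshold, which holds for every member shown; genes without a point were not tested. Ddx60 at 2 weeks, at -10.89, lies farthest from 0, and the 4-week values lie between -0.74 and 1.06.

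At 4 weeks the RNA sensors overlapped between the genotypes and no member passed the test, nor did any of 15209 genes (0%). DESeq2 and limma voom called no member either, with 11 higher and 6 lower genes by DESeq2 (0.112%) and 0 by voom (0%). Ddx60 was at 10.2, 4.75, 15.5, 17.7 and 17.4 CPM in WT f, f3, m1, m2 and m3 and at 3.81, 15.4, 4.41 and 15.1 CPM in KO f2, m1, m2 and m3. Ifih1 was at 90.1, 34.3, 48.6, 45.9 and 42.6 CPM in WT and 47.8, 66.7, 57.9 and 50.2 CPM in KO. The groups overlapped for both, with log2 fold changes of -0.63 (SE 0.44) and 0.16 (SE 0.27). No member of the 35 tested had ranges without overlap, against 1.19% of all genes.

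The members with the smallest unadjusted p at 4 weeks were Oas1a, Stat2 and Cxcl10, 3 members against 2.77% of all genes under 0.05. Oas1a, a 2-5A synthetase, was at 20.1, 25.9, 11.3, 18.4 and 14.9 CPM in WT f, f3, m1, m2 and m3 and at 38.3, 21.0, 29.5 and 24.3 CPM in KO f2, m1, m2 and m3. Its log2 fold change was 0.76 (SE 0.23, adjusted p = 0.9997, edgeR; exact permutation p = 0.0635), and WT f3 lay above 2 of the KO libraries. Stat2 was at 58.2, 35.5, 71.3, 85.0 and 48.4 CPM in WT and 21.9, 54.6, 49.3 and 36.3 CPM in KO, and the log2 fold change was -0.69 (SE 0.24, adjusted p = 0.9997, edgeR; exact permutation p = 0.103). Both genes had the 2 genotypes overlapping.

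Cxcl10, a chemokine that draws CXCR3-bearing lymphocytes, was at 16.6, 21.0, 11.4, 15.6 and 32.3 CPM in WT f, f3, m1, m2 and m3 and at 43.5, 31.7, 16.02 and 67.2 CPM in KO f2, m1, m2 and m3. KO m3 was highest and without it the log2 fold change went from 1.06 (SE 0.46) to 0.62. Irgm1, an immunity-related GTPase of membrane remodelling and autophagy, was at 123.1 to 135.6 CPM in WT and at 134.9, 181.3, 150.4 and 155.9 CPM in KO. Only KO f2 fell within the WT range. The log2 fold change of Irgm1 was 0.25 (SE 0.13, adjusted p = 0.9997, edgeR), and the exact permutation test, 1 of 17 run at 4 weeks, gave p = 0.0317 where 0.00794 is the smallest possible. Irgm1, Oas1a and Cxcl10 were chosen as the higher members of smallest edgeR p on these libraries, so this test too repeats the choice.

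Ifit2, which binds viral and cellular RNA, was at 89.4, 30.2, 106.4, 116.0 and 45.6 CPM in WT f, f3, m1, m2 and m3 and at 26.2, 77.5, 81.3 and 19.9 CPM in KO f2, m1, m2 and m3, with high and low libraries in both (log2 fold change -0.74, SE 0.49). The low libraries of Ifit2, WT f3 and m3 and KO f2 and m3, were also those with low summed mesenchymal stromal markers. These were at 1555, 1534, 1117 and 1195 CPM, against 2710 to 3612 CPM in the other 5 libraries of 4 weeks. By the values given above, the same libraries were also the lowest of 4 weeks for Stat2. Within each genotype they were the lowest for Ifih1 and the highest for Cxcl10, while Ddx60 and Oas1a did not follow this split. The part of these markers in the values of these genes was not tested. Irf1 at 4 weeks was at 418.9 to 598.6 CPM in WT and 358.3 to 758.7 CPM in KO, Irf7 at 93.8 to 163.3 and 123.9 to 169.4 CPM, Irf9 at 93.6 to 138.1 and 102.6 to 148.2 CPM, and Isg15 at 5.97 to 20.2 and 5.61 to 17.1 CPM. None of these 4 separated the genotypes. Of the 35 members, 26 had fitted values above 0 and 9 below, with a median of 0.10 beside 0.01 over all genes; without KO f2 the members' median was -0.016, and without the other single libraries it was 0.037 to 0.14. Summed erythroid markers were at 626.5 to 2920 CPM in KO and 172.6 to 1315 CPM in WT at 4 weeks; their part in these values was not tested.

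The design also allows the KO effect to be averaged over both times and compared between them, in a fit of all 17 libraries. Ddx60 was the only member past the threshold for the mean KO effect (log2 fold change -5.54, SE 0.80, adjusted p = 0.0117, edgeR), where 13 of 15703 genes passed (0.0828%). Eng itself had -1.83 (SE 0.31, adjusted p = 0.0455, edgeR) in this fit, while in the tests of 1 time it had -1.96 (SE 0.25, adjusted p = 0.612) at 2 weeks and -1.72 (SE 0.50, adjusted p = 0.9997) at 4 weeks, so those tests did not call the deleted gene either. Ddx60 was also the only member whose KO effect differed between the times, by 10.27 at 4 less 2 weeks (SE 1.53, adjusted p = 0.0167, edgeR), where 12 genes passed (0.0764%). Both sizes rest on the KO libraries of 2 weeks with a count of 1 or 0 and are not bounds.

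Several omissions ended these calls of Ddx60 by a narrow margin. The mean effect did not pass without KO f2 (-5.37, adjusted p = 0.0581, edgeR) or KO m3 of 4 weeks (-5.69, adjusted p = 0.0532, edgeR). The difference did not pass without WT f, m2 or m3 or KO m1 or m3 of 4 weeks, with values of 9.96 to 10.43 and adjusted p of 0.0509 to 0.0566 (edgeR). Without the neutrophil-marker-rich KO m2 and m3 of 2 weeks, Ddx60 kept both calls (-5.13 and 9.33, adjusted p = 0.00991 and 0.0176, edgeR) and Ifih1 joined it (-3.06, SE 0.66, adjusted p = 0.0379 and 6.43, SE 1.36, adjusted p = 0.0377, edgeR). The KO group of 2 weeks then held females only, as m2 and m3 were its only males. In that fit of 15 libraries 289 of 17478 genes passed for the mean effect (1.65%) and 251 for the difference (1.44%).

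Oasl2, Ifi35, Cxcl10, Oas2 and Ifit2 completed the members with the smallest p for the difference. Oasl2 had 1.64 (SE 0.64, adjusted p = 0.433, edgeR), being at 64.3 to 105.4 CPM in WT and 39.4 to 110.3 CPM in KO at 4 weeks. Ifi35 had 0.76 (SE 0.45), at 261.8, 103.2, 254.0 and 140.8 CPM in WT and 203.0, 66.4, 100.4 and 95.01 CPM in KO at 2 weeks. Cxcl10 was at 0 in all WT libraries of 2 weeks and at 17.4, 0, 0 and 12.2 CPM in KO f1, f4, m2 and m3. Oas2 was at 0 in the same WT libraries and at 0.262, 0, 22.7 and 0 CPM in KO. Against a floor of 3 counts per library the KO means of Cxcl10 and Oas2 at 2 weeks were at least 91.3-fold and 70.8-fold higher, each from 1 or 2 libraries only. Ifit2 had -1.12 (SE 0.71), at 41.7, 89.4, 37.5 and 87.4 CPM in WT and 46.7, 51.7, 142.1 and 131.7 CPM in KO f1, f4, m2 and m3 at 2 weeks. The high KO values of Ifit2 were those of the libraries rich in neutrophil markers. None of these 5 passed the test of the difference.

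**Figure D3:**
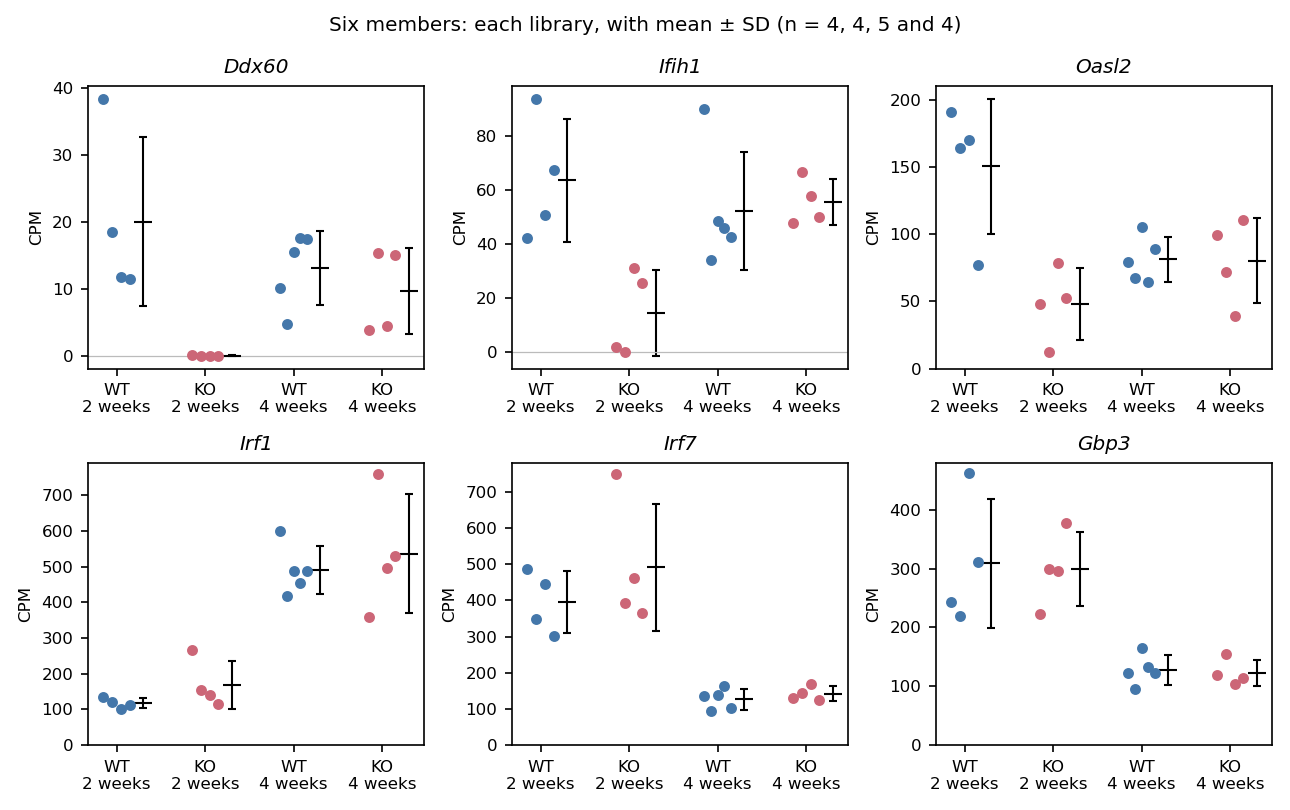
CPM of Ddx60, Ifih1, Oasl2, Irf1, Irf7 and Gbp3 in each library (points, WT blue, KO red) by genotype and time, with the mean and SD beside them in black (n = 4, 4, 5 and 4 from left to right). Ddx60 and Ifih1 are lower in the 2-week KO libraries than in every 2-week WT library, and Irf1, Irf7 and Gbp3 differ between the times in both genotypes without overlap.

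More members passed the test between the times than between the genotypes. In WT, Irf1 rose between 2 and 4 weeks while Irf7, the guanylate binding protein Gbp3, Oas1a and Ifit3 fell, and Oas2 and Cxcl10 rose from no count at all. In KO, Irf1 and Ddx60 rose and Irf7, Gbp3 and Ifit3 fell. These comparisons carry the difference in library complexity given above, and time and batch cannot be told apart. In the same fit the log2 fold changes had a median of 0.42 in WT and 0.49 in KO over all genes and of -0.21 and 0.02 over the 35 members. When every library had to hold 10 counts or more, the medians over all genes were 0.00 and -0.02.

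Irf7 was at 301.9 to 487.2 CPM in WT and 366.0 to 748.6 CPM in KO at 2 weeks, and at 93.8 to 163.3 and 123.9 to 169.4 CPM at 4 weeks. Every 4-week library lay below every 2-week library. The log2 fold change was -1.94 in WT (SE 0.20, adjusted p = 6.8e-05, edgeR) and -2.08 in KO (SE 0.22, adjusted p = 9.7e-05, edgeR). Gbp3, a guanylate binding protein of cell-autonomous defence, was at 242.8, 219.0, 462.4 and 311.5 CPM in WT f1, f4, m2 and m3 of 2 weeks and at 122.0, 95.3, 164.4, 133.5 and 122.1 CPM in WT f, f3, m1, m2 and m3 of 4 weeks. In KO it was at 223.2 to 377.0 and 103.6 to 155.1 CPM, and neither genotype had overlap between the times. The log2 fold changes were -1.60 in WT (SE 0.19, adjusted p = 0.000226, edgeR) and -1.68 in KO (SE 0.21, adjusted p = 0.000357, edgeR).

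Irf1 went the opposite way, from 101.7 to 134.7 CPM at 2 weeks to 418.9 to 598.6 CPM at 4 weeks in WT and from 115.9 to 266.6 to 358.3 to 758.7 CPM in KO. The times did not overlap in either genotype. The log2 fold change was 1.76 in WT (SE 0.22, adjusted p = 0.000377, edgeR) and 1.42 in KO (SE 0.24, adjusted p = 0.00328, edgeR), and without KO m2 and m3 of 2 weeks the KO value was 1.07 with an adjusted p of 0.0568 (edgeR). These 3 genes, Irf7, Gbp3 and Irf1, otherwise kept their side of the threshold without each single library and under each other scaling, filter and tool that was run.

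The antiviral effectors Oas1a and Ifit3 also fell in WT. Oas1a went from 103.7, 25.3, 74.3 and 44.3 CPM in WT f1, f4, m2 and m3 of 2 weeks to 11.3 to 25.9 CPM in WT of 4 weeks (log2 fold change -2.06, SE 0.41, adjusted p = 0.00797, edgeR). Only WT f4 fell inside the 4-week range. In KO its log2 fold change was -1.14 (SE 0.43, adjusted p = 0.119, edgeR). Ifit3, an IFIT protein that binds RNA complexes, was at 113.2 to 291.1 CPM and 84.8 to 118.2 CPM in WT and at 137.9 to 297.2 and 83.6 to 142.6 CPM in KO. Its log2 fold change was -1.22 in both genotypes (SE 0.27, adjusted p = 0.0177 in WT; SE 0.30, adjusted p = 0.0285 in KO, edgeR). The WT call was lost without WT m2 of 2 weeks (-0.93, adjusted p = 0.0748, edgeR) or WT f of 4 weeks (-1.14, adjusted p = 0.0510), and the KO call without any of 5 KO libraries (f1 and f4 of 2 weeks, f2, m1 and m2 of 4 weeks; adjusted p of 0.0602 to 0.0796).

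Oas2 and Cxcl10 had no count in any WT library of 2 weeks. At 4 weeks Oas2 was at 19.9, 13.1, 22.6, 3.24 and 9.35 CPM in WT f, f3, m1, m2 and m3 (adjusted p = 0.0403, edgeR), at least 169-fold above a floor of 3 counts per library. Cxcl10, with the 4-week values given above, was at least 239-fold above it (adjusted p = 0.0256, edgeR). Every 4-week WT library had both genes and no 2-week WT library had either. Both were too low for the filter at 2 weeks and entered this fit through their 4-week counts. Their calls are therefore no separate support for the difference. The share of all genes with the same pattern was not counted. Genes with a count numbered 11149 to 13424 in WT libraries of 2 weeks and 15996 to 21235 in those of 4 weeks. The call of Oas2 was lost without any of 12 single libraries (adjusted p up to 0.0853, edgeR) and that of Cxcl10 without WT f1, f4 or m2 of 2 weeks (adjusted p of 0.0507 to 0.0568, edgeR). Ddx60 in KO went from 1 count in 4 libraries to 3.81 to 15.4 CPM (log2 fold change 9.35, SE 1.37, adjusted p = 0.00129, edgeR), and in WT it had -0.92 (SE 0.98, adjusted p = 0.737, edgeR).

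In all, 7 of 35 members passed in WT (3 higher, 4 lower) where 6.92% of all genes did (5.03% higher, 1.88% lower), and 5 of 35 in KO (2 higher, 3 lower) where 6.33% did (4.84% and 1.49%). DESeq2 called 8 members in WT and 7 in KO, where it called 18.7% and 18.3% of all genes, and voom 9 and 6, where it called 9.13% and 8%. Irf1, Irf7, Gbp3 and Ifit3 passed edgeR's test in both genotypes. The share of all genes that passed in both was not counted, so this overlap has nothing to be set against. Ranges did not overlap between times for 8 members in each genotype (22.9%), against 18.1% and 23.3% of genes. Rsad2 (viperin, which makes a chain-terminating nucleotide) was among these in both, higher at 4 weeks, at 114.2 to 190.0 against 208.1 to 299.4 CPM in WT, with a log2 fold change of 0.51 (SE 0.32) that did not pass. Ifitm3, with 0.02 (SE 0.16) in WT and -0.09 (SE 0.17) in KO, and the Isg15 value of 0.28 (SE 0.71) in WT did not pass either.

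**Figure D4:**
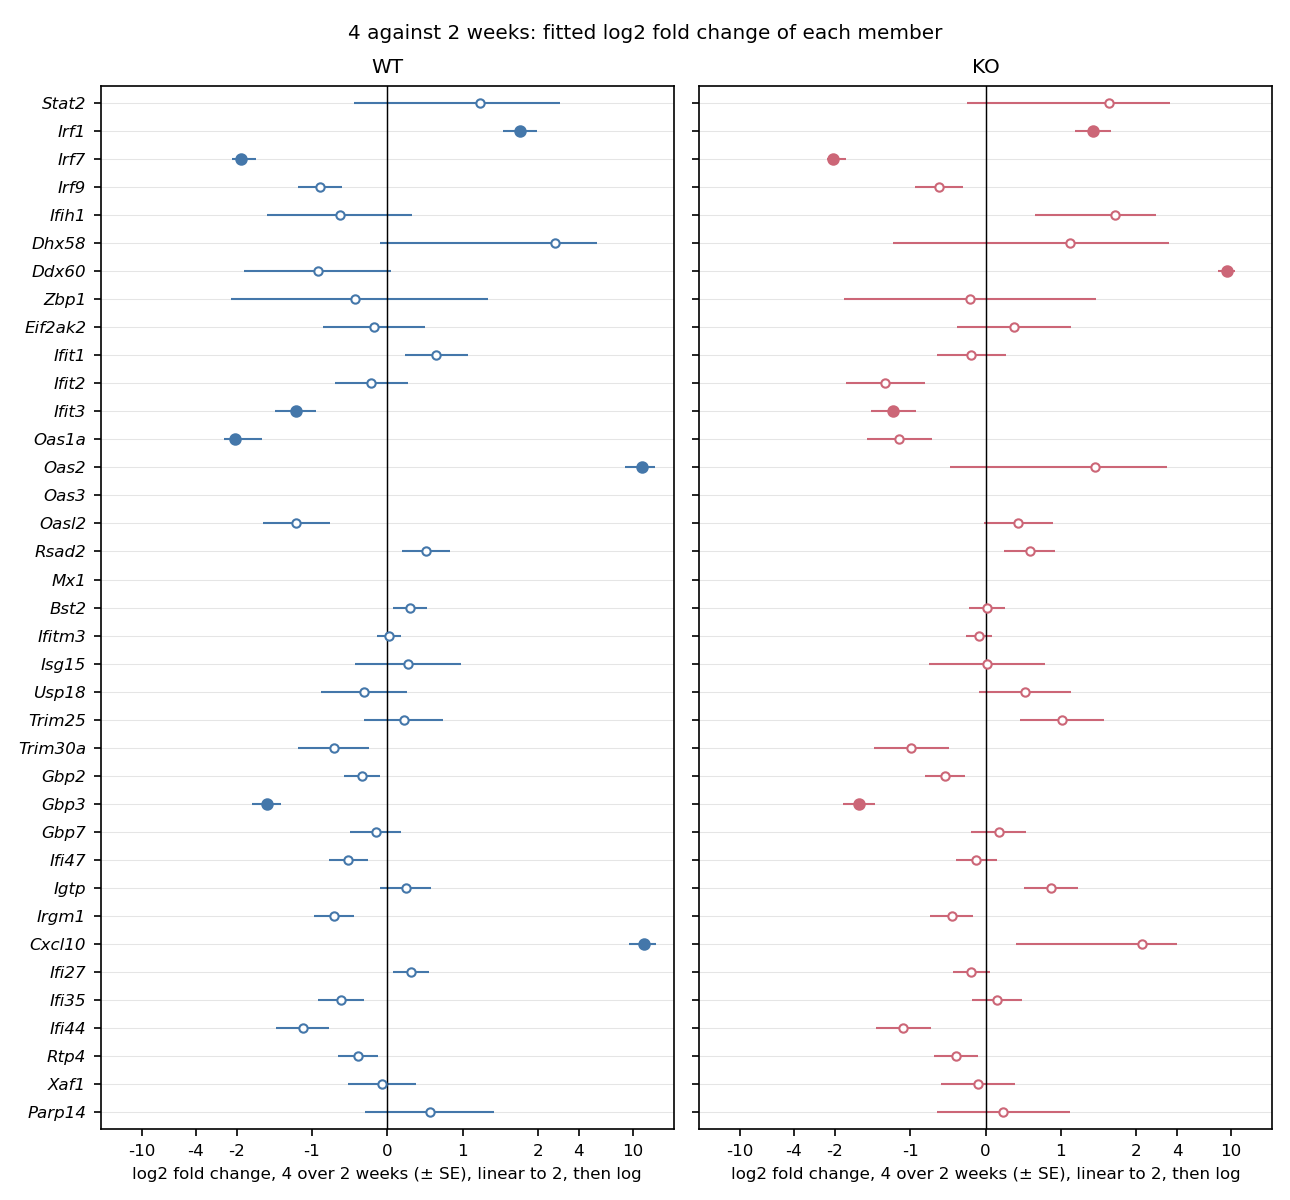
Fitted log2 fold change of each member, 4 over 2 weeks, with its standard error as a bar, in WT (left) and KO (right); the axis is linear to 2 and logarithmic beyond. Filled circles passed the adjusted threshold (7 members in WT, 5 in KO) and open circles did not; Oas3 and Mx1 were not tested. Irf7, Gbp3 and Ifit3 lie below 0 and Irf1 above 0 in both genotypes.

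The rest of the pathway was read from 97 further genes. None passed edgeR's test for genotype at 2 weeks (65 tested), at 4 weeks (76 tested), for the mean effect or for the difference (78 tested each). At an unadjusted p under 0.05 there were 0, 1, 8 and 7, where for the last 2 comparisons 11% and 9.81% of all genes were. DESeq2 called 2, 0, 7 and 6, where it called 1.44%, 0.112%, 8.89% and 8.3% of all genes. Of 13 interferon genes, only Ifnb1 was above the floor of 3 counts, in 1 library, a KO of 4 weeks at 1.33 CPM. Ifnar1, a chain of the type I receptor, had mean levels (± SD) at 2 weeks of 38.8 ± 20.6 CPM in 4 WT and 28.8 ± 24.8 CPM in 4 KO libraries, and at 4 weeks of 105.5 ± 24.7 CPM in 5 WT and 79.8 ± 45.2 CPM in 4 KO libraries. Its differences by genotype and by time did not pass the threshold.

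Between the times, the inducible subunits of the immunoproteasome, which trims peptides for MHC class I, fell in both genotypes. Psmb9 had -1.21 in WT (SE 0.13, adjusted p = 8.6e-05, edgeR) and -1.05 in KO (SE 0.14, adjusted p = 0.000542, edgeR). Psmb8 had -0.95 and -1.41 (SE 0.17 and 0.18), and Psmb10 -0.82 and -0.67 (SE 0.16 and 0.18), all past the threshold. Ifngr1, a chain of the interferon gamma receptor, rose in WT by 1.38 (SE 0.34, adjusted p = 0.0304, edgeR), from 170.1 ± 71.7 (SD, n = 4) to 554.6 ± 65.6 CPM (SD, n = 5). In WT 3 of 78 pathway genes were higher and 5 lower (5.03% and 1.88% of all genes), with Tgtp2, an immunity-related GTPase, at -0.81 (SE 0.22) among the latter. In KO 1 was higher, Nlrc5, an activator of MHC class I genes that had no count in the 2-week KO libraries, and 4 were lower (4.84% and 1.49% of all genes), with the GTPase gene Irgm2 at -1.51 (SE 0.38) beside the immunoproteasome. The count of 8 in WT was 3 without WT f1 or m2 of 2 weeks or WT f or f3 of 4 weeks, 4 without WT m1 or m3 or KO m1 of 4 weeks, 5 without KO m3 of 4 weeks, and 12 without KO f1 or f4 of 2 weeks. The count of 5 in KO was 3 without KO f2, m2 or m3 of 4 weeks and 8 without KO f4 of 2 weeks. DESeq2 called 16 of 78 in each genotype, where it called 18.7% and 18.3% of all genes.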

How the data were processed

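The deposited files hold raw read counts for each gene and library, as whole numbers that were not normalized. Per the submitters' processing notes, reads were handled with cutadapt, STAR and HTSeq 0.6.1p1 on GRCm38 (mm10); versions of the first 2, the gene annotation and the strand setting are not given in the sources used here, so reads shared with overlapping genes (13 members overlap another gene's exons, 5 of them on the same strand, such as Igtp with Irgm2) and with paralogs of the IFIT, OAS, GBP and IRG families may be split uncertainly. SmartSeq2 counts are of amplified fragments, so intervals and floors cover counting error only. Identifiers were named with GENCODE M21 (GRCm38), which matched 49326 of 49585. Coordinates are 1-based.

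Counts were tested with edgeR 4.0.16 in R 4.3.3 (filterByExpr on group, TMM scaling, robust quasi-likelihood F test, sex as a term), each time alone for genotype and all 17 libraries together for the mean KO effect, its difference between times and the times within each genotype. P-values were adjusted by Benjamini-Hochberg across every gene in the fit (threshold 0.05), and the SE was derived from the F statistic. CPM uses the library total. Exact permutation tests over libraries used log2 CPM with a prior count of 2 and are unadjusted. DESeq2 1.42.0 and limma 3.58.1 (voom with quality weights), other scalings and filters, a fit without sex and omitted libraries were alternatives. The fitting code was checked on simulated counts. No 2 libraries of a group agreed within sampling noise. Promoter windows came from RefSeq (GRCm38.p6).

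The members, lists and tests were chosen with earlier results of these data known. Values by library were given for Stat2, Irf1, Irf7, Irf9 and Isg15, and for the 3 members with the smallest p in each direction per comparison. Further pathway genes were named if called, at most 5 per comparison, with Ifnar1; 1 other gene of this rule is not reported here. The mitochondrial genes and the unblocked fit of paired libraries were alternatives added after the data were seen.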

Additional observations from a re-analysis of the deposited data

Results flagged for a closer look

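In 140 sets of 1 member in 1 group, over all 37 members, 12 values lay far from the others of their group by Dixon's criterion. Chance flags about 1 in 20 sets of normal values. That rate does not hold where all others are at 0, since any value above 0 is then flagged. This is so for Dhx58 in WT f1 of 2 weeks and for Oas3 and Mx1 in WT f of 4 weeks. The 12 values fall in 6 libraries, and KO f1 of 2 weeks holds 5 of them. KO f1 was at 286.8 CPM for Irf9, with the others of the group at 106.8 to 129.9 CPM, and at 725.5 CPM for Bst2, with the others at 356.6 to 365.3 CPM. It was at 256.9 CPM for Xaf1 (others 53.4 to 78.6 CPM), at 65.0 CPM for Dhx58 (others 0.0295 to 6.90 CPM) and at 5.95 CPM for Oas3 (others 0 to 0.165 CPM). In the same group, f4 was at 215.3 CPM for Ifit1, with the others at 45.8 to 63.6 CPM, and m2 was at 22.7 CPM for Oas2, with the others at 0 to 0.262 CPM. In WT of 2 weeks, f1 was at 33.3 CPM for Dhx58, with the others at 0. In WT of 4 weeks, f was at 90.1 CPM for Ifih1, with the others at 34.3 to 48.6 CPM, and at 0.652 CPM for Oas3 and 0.712 CPM for Mx1, with the others at 0 for both. In that group, f3 was at 38.1 CPM for Ifi47, with the others at 74.3 to 87.7 CPM.

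The KO effect on Ddx60 differed between the times, by 10.27 on the log2 scale at 4 less 2 weeks (edgeR, adjusted p = 0.0167).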

How the results depend on the processing

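Members named for KO against WT, and members already called in the other comparisons, were followed through the alternatives. No call changed direction in 964 such values: 928 kept their side of the threshold, 33 lost the call and 3 gained it, and 56 values that were called in neither fit changed sign. Many of these values are of uncalled members in the genotype tests of 1 time. No gene passed there, so keeping the side was nearly fixed in advance. In the other comparisons only called members were followed, so members that gained a call there, such as Ifih1, are not counted. At 2 weeks 1 member, Ddx60, was called with DESeq2, with voom and in the fit of all 17 libraries (-10.68, adjusted p = 0.00372). Leaving out single libraries gave medians of the members of -0.088 to 0.16 at 2 weeks. For the mean KO effect the count of 1 member became 0 with at least 10 counts in every library (Ddx60 is then not tested), 3 with DESeq2 (with Oas2 and Cxcl10; 8.89% of all genes), 2 without KO m2 and m3 of 2 weeks, and 0 to 1 without single libraries. For the difference it became 0 without a low-count filter, 0 with at least 10 counts, 0 with voom, 3 with DESeq2 (8.3% of all genes), 2 without KO m2 and m3, and 0 to 1 without single libraries; its median, 0.00, ran from -0.12 to 0.19 without single libraries and was -0.19 without KO m2 and m3. The median in time was -0.028 in WT and 0.17 in KO with voom, where the median over all genes was 1.38 and 1.66, and -0.19 in KO without KO m2 and m3. Without a low-count filter Oas2 lost its call in WT (adjusted p = 0.0562). The cause of these changes was not tested. The correlation r of deviations from the group mean was -0.02 to 0.05 between same-numbered libraries at 2 weeks. Other pairs of that time had -0.069 to 0.073. At 4 weeks same-numbered pairs had 0.05 to 0.16 and other pairs -0.15 to 0.14. The highest r at 4 weeks was that of WT m3 and KO m3. With the replicate number as a block, 0 members passed at either time and the medians were -0.01 and -0.03. At 4 weeks that fit held only m1, m2 and m3 of each genotype. The same libraries without the block had a median of -0.027, against 0.10 in the main fit. At 2 weeks members at 0 in some libraries of both genotypes limit what can be seen.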

Other observations

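The mean log2 CPM per library was taken, as a plain summary, over the 29 members with a count in all 17 libraries. This left out Ddx60, Stat2, Dhx58, Zbp1, Oas2, Oas3, Mx1 and Cxcl10. At 2 weeks the mean ± SD of this summary was 6.82 ± 0.14 over 4 WT and 6.58 ± 0.19 over 4 KO libraries. At 4 weeks it was 6.54 ± 0.12 over 5 WT and 6.61 ± 0.06 over 4 KO libraries, with overlap between all 4 groups. Among genes of at most 2 kb of exon, the median log2 change in time was 0.07 in WT and 0.08 in KO, and among those over 5 kb it was 0.70 and 0.77. The 11 members over 5 kb had a median of -0.63 in WT and 0.38 in KO. For KO against WT at 2 weeks the median over all genes was 0.09 up to 2 kb and -0.18 over 5 kb. The members had 0.05 and -0.37 in these classes, and Ddx60, Ifih1 and Oasl2 are all over 5 kb. At 4 weeks the medians were 0.10 and -0.09 over all genes and 0.07 and 0.01 over the members. The part of length in these values was not tested.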
